A study of Mus musculus with 16 samples.

Results

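The BCL2 family sets whether a stressed cell keeps its mitochondrial outer membrane intact or commits to apoptosis. The 10 members of the family described here were followed through 16 poly(A) RNA-seq libraries of mouse mammary tumors, before and after paclitaxel and at 2 growth sites. The 10 genes are a list given by name and role, out of 17149 genes shared by all tables of the series: the 3 guardians Bcl2, Bcl2l1 and Mcl1, the 2 effectors Bax and Bak1, and the 5 BH3-only or BH3-like genes Bcl2l11, Bbc3, Pmaip1, Bid and Bnip3l. All 10 passed the filter on low values (a mean of at least 1 over the libraries compared) in each of the 4 comparisons below.

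The tumors grew from 4T1 cells, a line from a BALB/c mammary carcinoma that stands in for triple-negative breast cancer, in female wild-type BALB/c mice of 6 weeks. The 5 post_Liver and 5 pre_Liver libraries came from 200000 cells injected under the capsule of the left liver lobe, and the 3 post_SC and 3 pre_SC libraries from 400000 cells placed in a mammary fat pad, a site that the submitters call subcutaneous. The post groups are tumors after chemotherapy with paclitaxel, a drug that stabilizes microtubules and arrests cells in mitosis, given into the peritoneum at 10 mg/kg on 5 occasions a week for 2 weeks. The pre groups are tumors before chemotherapy; the labels mention control mice that received PBS but do not say whether the pre libraries are those mice, nor how the 15 days of growth given for all tumors relate to the weeks of dosing. Growth site and number of implanted cells cannot be told apart. That libraries are different mice is stated by no label; p-values here therefore reflect variation among the libraries, which may be technical.

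Guardians hold effectors and BH3-only proteins in check. When they are overwhelmed, BAX and BAK1 assemble pores in the outer membrane, cytochrome c escapes and caspases are activated. BH3-only proteins carry the stress signal: BIM (Bcl2l11), PUMA (Bbc3), NOXA (Pmaip1) and BID bind guardians or trigger effectors directly, and drugs that arrest mitosis are known to act on this balance through MCL1 loss and BIM. BNIP3L (NIX) differs from the rest in that it is best known as a receptor for removal of mitochondria by autophagy, induced in low oxygen. Much of this control acts on protein amount and modification, which RNA does not show.

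In the GENCODE annotation of the mouse build GRCm38, which the submitters' processing notes name, Bcl2 lies on chromosome 1 (106538178 to 106714274, minus strand), Mcl1 on chromosome 3 (95658788 to 95663176, plus strand), Bax on chromosome 7 (45461697 to 45466898, minus strand) and Bak1 on chromosome 17 (27019810 to 27029009, minus strand). Bcl2l1 and Bcl2l11 are both on chromosome 2, Bbc3 is on chromosome 7, Bid on chromosome 6 and Bnip3l on chromosome 14. Exons of 4 members overlap exons of another annotated gene. Ggnbp1, on the opposite strand, covers 25.5% of the exon bases of Bak1, and Bcl2l13, itself a family member, runs opposite to Bid over 17.7% of its exon bases. An antisense transcript covers 6.09% of the exon bases of Bcl2, and a same-strand gene model, Gm45808, covers 12.2% of those of Bax. Whether reads were counted by strand is not given in the sources used here, so reads of these overlapping stretches cannot be told apart.

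The stretch just before the start of a gene holds its core promoter. The 4 windows below show that stretch for the 3 guardians and for Bax, the effector whose window overlaps no annotated exon of its gene. Each is the 250 bases before a RefSeq gene start on GRCm38.p6, 5′ to 3′ along the gene; RefSeq starts can differ from the GENCODE starts given above. Bcl2l1 has several RefSeq starts, and its most upstream one is used. Capitals mark matches, on either strand, to the STAT motif TTCNNNGAA, the cAMP response half-site TGACG, the hypoxia response cores ACGTG and GCGTG, and the CCAAT box.
Bcl2, chr1:106714291-106714540, minus strand: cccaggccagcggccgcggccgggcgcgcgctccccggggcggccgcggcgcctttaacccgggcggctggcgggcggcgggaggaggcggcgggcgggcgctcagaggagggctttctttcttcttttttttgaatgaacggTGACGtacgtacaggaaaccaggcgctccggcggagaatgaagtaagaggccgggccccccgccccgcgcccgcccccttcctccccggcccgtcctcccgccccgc
Bcl2l1, chr2:152831729-152831978, minus strand: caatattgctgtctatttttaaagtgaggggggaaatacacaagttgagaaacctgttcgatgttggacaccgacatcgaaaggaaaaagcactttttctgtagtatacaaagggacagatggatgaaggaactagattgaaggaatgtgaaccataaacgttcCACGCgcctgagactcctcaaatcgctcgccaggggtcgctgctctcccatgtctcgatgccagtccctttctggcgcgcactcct
Mcl1, chr3:95658471-95658720, plus strand: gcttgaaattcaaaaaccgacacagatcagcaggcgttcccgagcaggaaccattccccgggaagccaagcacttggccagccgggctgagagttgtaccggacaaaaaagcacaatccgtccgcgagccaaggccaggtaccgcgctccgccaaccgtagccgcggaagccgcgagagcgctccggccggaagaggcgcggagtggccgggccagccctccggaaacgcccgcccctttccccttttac
Bax, chr7:45466899-45467148, minus strand: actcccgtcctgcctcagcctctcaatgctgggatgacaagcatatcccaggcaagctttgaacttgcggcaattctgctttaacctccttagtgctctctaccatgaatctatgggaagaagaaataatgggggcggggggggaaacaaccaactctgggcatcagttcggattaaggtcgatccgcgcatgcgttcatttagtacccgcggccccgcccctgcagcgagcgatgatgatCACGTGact
The Bcl2 window holds 1 TGACG, 107 bases before the start, and 7 GC boxes (GGGCGG on either strand, not capitalised). The Bax window holds CACGTG close to the start, a palindrome that reads ACGTG on both strands and so counts as 2 matches of 1 site. The Bcl2l1 window holds 1 GCGTG, read on the other strand. The Mcl1 window holds none of the capitalised motifs and 1 GC box. Over the 13 windows available for 8 of the 10 members, of which 4 overlap an exon of their own gene, TTCNNNGAA was found in 0 (7.02% of all 32851 windows of that length hold it), TGACG in 2 (17.8%), a hypoxia core in 6 (38.6%), CCAAT in 3 (33.8%) and the GC box in 9 (32.7%). Bbc3, Bcl2l1 and Bcl2l11 have more than 1 window, and some windows of Bbc3 overlap, so windows are not independent. By gene, TGACG was found in 2 of the 8 members, a hypoxia core in 4, CCAAT in 2 and the GC box in 6. TGACG and ACGTG can overlap, as TGACGTG. A match describes the letters of the window and does not show that a factor binds there.

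The liver libraries are mixtures of tumor and liver. Alb, the hepatocyte albumin transcript, stood at 734 to 21906 TPM in post_Liver and 8231 to 61264 TPM in pre_Liver, and was at most 4.22 TPM in the subcutaneous libraries. The summed TPM of 16 carcinoma epithelium markers was 1359 to 5081 in post_Liver, 724 to 3853 in pre_Liver, 5303 to 6588 in post_SC and 6196 to 6329 in pre_SC. Libraries of 1 group correlated across genes at r = 0.626 to 0.993 in the liver groups and 0.922 to 0.974 in the subcutaneous groups. The closest pair was post_Liver 2 and 3, with 0.267% of genes differing more than 2-fold. In the other post_Liver pairs it was 4.63% to 38.1%. The tests count post_Liver 2 and 3 as separate libraries, and no label says whether they are separate tumors. In bulk RNA, fewer cells of a type and less RNA per cell cannot be told apart. The number of reads behind the values is not given in the sources used here, so no counting error can be attached to any level.

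**Figure D1:**
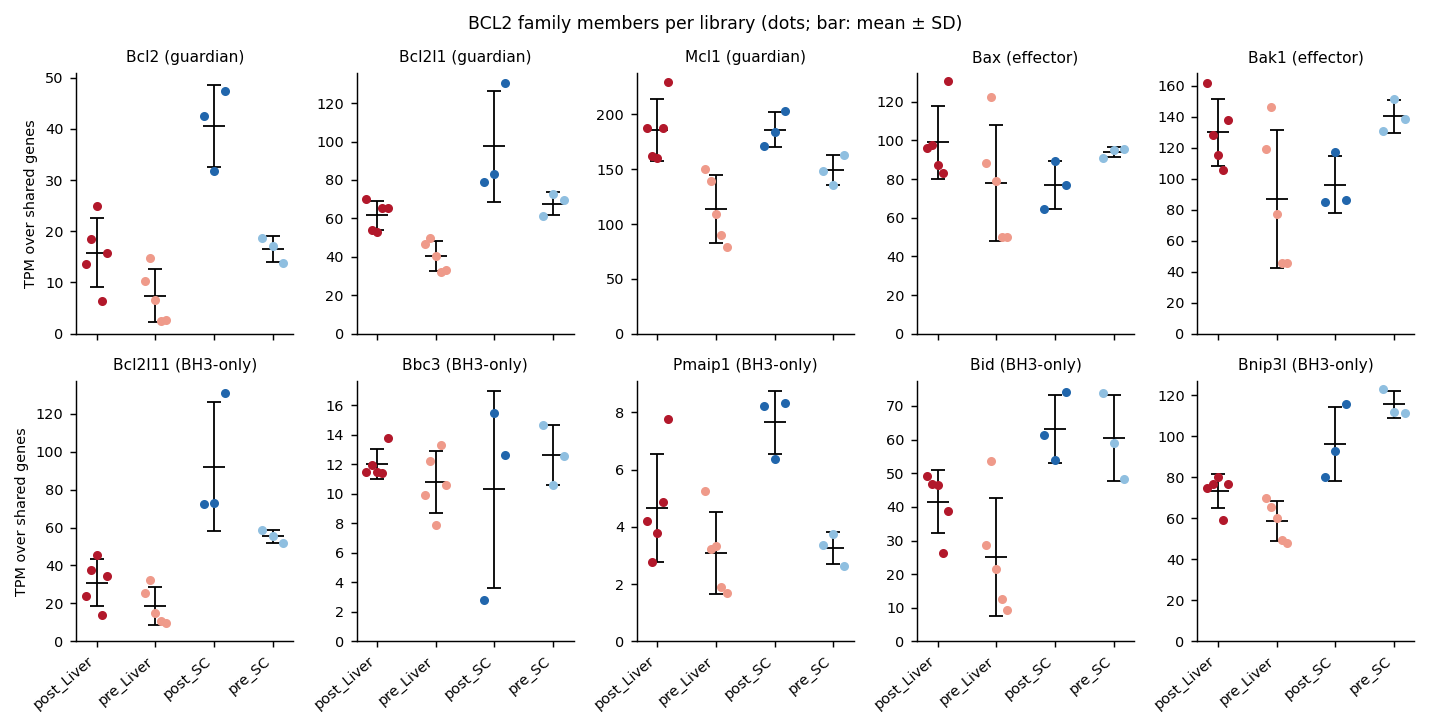
Level of each of the 10 genes in every library, in TPM computed over the 17149 genes shared by the tables (vertical axis, from 0), for post_Liver and pre_Liver (5 libraries each) and post_SC and pre_SC (3 each). Dots are libraries and bars give mean ± SD. Mcl1 has the highest mean in every group. The 3 post_SC libraries lie above the 3 pre_SC libraries for Bcl2, Bcl2l1, Mcl1, Bcl2l11 and Pmaip1, and below them for Bax and Bak1.

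Mcl1, the short-lived guardian, had the highest mean level of the 10 genes in all 4 groups, and Pmaip1, which encodes its selective antagonist NOXA, had the lowest. On the TPM scale over shared genes, Mcl1 averaged 185 ± 28.2 in post_Liver, 114 ± 30.8 in pre_Liver, 186 ± 16.04 in post_SC and 149 ± 13.8 in pre_SC (SD, n = 5, 5, 3 and 3). That placed Mcl1 above 95.5% of all shared genes in post_Liver, 92.6% in pre_Liver, 95.7% in post_SC and 94.2% in pre_SC. The range of Mcl1 overlapped that of the next gene, Bak1, in both liver groups and in pre_SC; in post_SC the next gene was Bcl2l1 and the ranges did not overlap. Pmaip1 averaged 4.67 ± 1.88 TPM in post_Liver, 3.09 ± 1.43 in pre_Liver, 7.65 ± 1.10 in post_SC and 3.26 ± 0.57 in pre_SC.

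Between these ends the order differed among the groups. In pre_SC it ran Bak1, Bnip3l, Bax, Bcl2l1, Bid, Bcl2l11, Bcl2 and Bbc3, and among these the neighbours Bcl2l1 with Bid, Bid with Bcl2l11 and Bcl2 with Bbc3 overlapped. In post_SC the 5 genes Bcl2l1, Bak1, Bnip3l, Bcl2l11 and Bax followed Mcl1 with means of 76.8 to 97.5 TPM, each overlapping its neighbour. The liver groups shared the order Bak1, Bax, Bnip3l, Bcl2l1, Bid and Bcl2l11 below Mcl1. In pre_Liver each gene overlapped its neighbour; in post_Liver the steps from Bax to Bnip3l, from Bcl2l1 to Bid and from Bbc3 to Pmaip1 were without overlap.

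The first comparison asked how the family differed between subcutaneous tumors after and before paclitaxel. The guardian Bcl2 and the BH3-only gene Pmaip1 rose in post_SC, 1 of 3 guardians and 1 of 5 BH3-only genes. Neither of the effectors passed the test. In the fit over 13363 genes, 2.66% of genes were called higher and 4.27% lower (limma on log2(TPM + 1), Benjamini-Hochberg adjusted p below 0.05), 6.94% in all; of the 10 members, 2 were called higher and 0 lower. Non-overlapping groups were seen for 7 of the 10 members, against 34.7% of all genes tested.

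Bcl2, the founding guardian, stood at 42.4, 31.7 and 47.3 TPM in the 3 post_SC libraries and at 18.6, 17.2 and 13.7 TPM in the 3 pre_SC libraries. Every post_SC library lay above every pre_SC library, and the lowest post_SC value was well clear of the highest pre_SC value. Bcl2 rose by 1.24 ± 0.19 on the log2(TPM + 1) scale, 2.36-fold in TPM + 1 (SE, adjusted p = 0.0173). Bcl2l1, which encodes BCL-XL, was at 78.8, 82.9 and 130.5 TPM in post_SC and 61.1, 72.4 and 69.4 TPM in pre_SC. The third post_SC library was far above the other two, and the log2 difference of 0.48 ± 0.20 did not pass (adjusted p = 0.168); it was 0.26 without that library. Mcl1 was at 171, 184 and 203 TPM in post_SC and 148, 135 and 163 TPM in pre_SC, without overlap but also below the threshold (log2 difference 0.32 ± 0.12, adjusted p = 0.135).

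Both effectors lay lower in every post_SC library than in every pre_SC library, and neither passed the test. Bak1 was at 84.8, 117 and 86.5 TPM in post_SC and 130.5, 152 and 138 TPM in pre_SC. The second post_SC library was nearest to the pre_SC range. The log2 difference was −0.55 ± 0.15, 0.682-fold in TPM + 1 (adjusted p = 0.0671). Without post_SC 2 it was −0.70 (adjusted p = 0.0312). Bax was at 64.5, 89.1 and 76.6 TPM in post_SC and 90.9, 95.1 and 95.5 TPM in pre_SC, again with the second post_SC library close to the pre_SC values (log2 difference −0.30 ± 0.14, adjusted p = 0.203).

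Among the BH3-only genes the directions were mixed. Pmaip1 stood at 8.22, 6.37 and 8.31 TPM in post_SC and 3.38, 3.75 and 2.63 TPM in pre_SC. It is a low-level transcript in both groups, and it rose by 1.02 ± 0.20 on the log2(TPM + 1) scale, 2.03-fold in TPM + 1 (adjusted p = 0.0316). Bcl2l11 was at 72.4, 72.7 and 130.9 TPM in post_SC and 58.6, 55.4 and 51.7 TPM in pre_SC. As with Bcl2l1, the third post_SC library was far above the other two, and the difference of 0.67 ± 0.23 did not pass (adjusted p = 0.116) and was 0.39 without that library.

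Bbc3, a direct target of p53, was at 2.80, 15.4 and 12.6 TPM in post_SC and 14.6, 10.6 and 12.5 TPM in pre_SC. The first post_SC library alone was low; the fitted difference was −0.51 ± 0.51 (adjusted p = 0.548), and it was 0.15 without that library. Bid, which caspase-8 cleaves to link death receptors to mitochondria, was at 61.2, 54.0 and 74.0 TPM in post_SC and 73.8, 59.0 and 48.2 TPM in pre_SC. The groups overlapped throughout, with a log2 difference of 0.07 (95% interval −0.36 to 0.51). Bnip3l was at 79.9, 92.4 and 115 TPM in post_SC and 123, 112 and 111 TPM in pre_SC. The third post_SC library reached the pre_SC range, and the difference was −0.28 ± 0.15 (adjusted p = 0.266).

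With 3 libraries a group an exact two-sided permutation test of 1 gene cannot go below p = 0.1, and the 7 members without overlap stood at that value. Calls rested on few libraries: the adjusted p of Bcl2 was 0.0513 without post_SC 1, and 0.0597, 0.0607 and 0.0744 without pre_SC 1, 2 and 3 in turn. For Pmaip1 it was 0.0866 without post_SC 1, 0.0572 without post_SC 3, and 0.0924, 0.0799 and 0.122 without pre_SC 1, 2 and 3. The estimate itself stayed between 1.12 and 1.40 for Bcl2 and between 0.91 and 1.13 for Pmaip1 over all 6 fits that leave out a library.

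A ratio of 2 transcripts within a library does not depend on how that library was scaled. Bax over Bcl2 was 1.52, 2.81 and 1.62 in post_SC and 4.89, 5.54 and 6.96 in pre_SC. The log2 ratio averaged 0.93 ± 0.49 in post_SC and 2.52 ± 0.26 in pre_SC (SD, n = 3 each), without overlap. Bax over Bcl2l1 had a mean log2 ratio of −0.32 ± 0.44 in post_SC and 0.48 ± 0.09 in pre_SC, and Bak1 over Mcl1 one of −0.96 ± 0.29 in post_SC and −0.09 ± 0.22 in pre_SC, both without overlap. Bcl2l1 over Mcl1 and Bbc3 over Mcl1 overlapped between the groups. These ratios describe the same values as the levels above and were not tested.

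**Figure D2:**
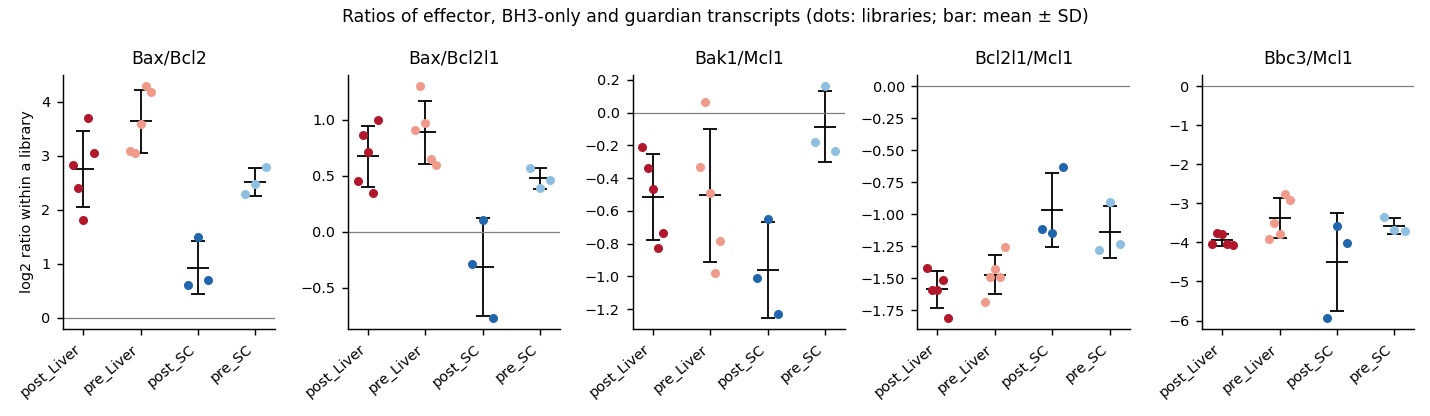
Log2 ratio of the named transcripts within each library (vertical axis) for post_Liver, pre_Liver, post_SC and pre_SC; dots are libraries, bars mean ± SD. The 3 post_SC libraries lie below the 3 pre_SC libraries for Bax/Bcl2, Bax/Bcl2l1 and Bak1/Mcl1, while the 2 liver groups overlap in every panel.

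Other transcripts moved with treatment in the same subcutaneous libraries. The summed TPM of 18 mitosis genes was 379 to 545 in post_SC and 731 to 901 in pre_SC, with 10 of 18 called lower, among them Bub1b, Kif20a, Ccnb1 and Aurkb. The summed TPM of 14 hypoxia genes was 889 to 1034 in post_SC and 1911 to 2094 in pre_SC, with 8 of 14 called lower, led by P4ha1 (−2.03 ± 0.13). Of 11 endothelial markers tested, 6 were called higher and 1 lower, and their sum was 358 to 397 TPM in post_SC and 238 to 290 TPM in pre_SC. Macrophage markers summed to 4826 to 6299 TPM in post_SC and 2763 to 4265 TPM in pre_SC (1 of 12 called higher). Much of that sum was Apoe, with a mean of 3211 TPM in post_SC and 1534 TPM in pre_SC. Of the 12 markers tested 7 had a positive difference, and others, such as Cd68 (mean 84.8 TPM in post_SC, 119 TPM in pre_SC), were lower. Neutrophil markers summed to 288 to 347 TPM in post_SC and 438 to 769 TPM in pre_SC (1 of 14 called lower). The part of any of these in the values of the 10 members was not tested.

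The second comparison set liver tumors after paclitaxel against liver tumors before it. All 10 members had a positive fitted difference, and 0 of 10 were called, against 3.64% of the 13008 genes tested (2.24% higher, 1.41% lower; limma on log2(FPKM + 1)). At an unadjusted p below 0.05 there were 3, the guardians Bcl2, Bcl2l1 and Mcl1. The share of all genes at that unadjusted p was not computed. Such counts, here and below, are therefore descriptions and do not set these genes apart from others. The median of all genes was itself at 0.37 on the log2 scale, and 0.03 under median-of-ratios scaling, so differences are also given relative to that median. The groups did not overlap for 2 members, against 6.63% of all genes tested.

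Mcl1 was at 95.6, 88.4, 87.2, 98.5 and 117 FPKM in the 5 post_Liver libraries and at 81.6, 73.2, 58.4, 45.5 and 41.8 FPKM in the 5 pre_Liver libraries. All post_Liver values exceeded all pre_Liver values. The difference was 0.73 ± 0.21 on the log2(FPKM + 1) scale, 0.36 above the median gene (adjusted p = 0.0732; exact two-sided permutation p = 0.00794, the smallest that 5 against 5 libraries can give). Bcl2l1 was at 35.8, 29.3, 28.9, 34.4 and 33.5 FPKM in post_Liver and 25.4, 26.1, 21.7, 16.2 and 17.4 FPKM in pre_Liver. Its groups did not overlap either, with a difference of 0.60 ± 0.17, 0.23 above the median gene (adjusted p = 0.0699; exact permutation p = 0.00794). Bcl2 was at 6.91, 10.1, 13.6, 3.39 and 8.06 FPKM in post_Liver and 5.61, 7.77, 3.54, 1.30 and 1.46 FPKM in pre_Liver. Its spread was wide in both groups and they overlapped (difference 1.02 ± 0.43, 0.65 above the median gene, adjusted p = 0.142).

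The effectors overlapped between the liver groups. Bak1 was at 82.8, 70.0, 63.0, 55.6 and 70.5 FPKM in post_Liver and 64.9, 76.6, 41.6, 23.1 and 24.2 FPKM in pre_Liver. The pre_Liver values spanned more than a 3-fold range, and the difference of 0.71 ± 0.33, 0.34 above the median gene, did not pass (adjusted p = 0.168). Bax was at 49.0, 53.3, 47.5, 43.8 and 66.7 FPKM in post_Liver and 47.9, 64.2, 42.5, 25.4 and 26.4 FPKM in pre_Liver. Its difference, 0.40 ± 0.26, was 0.03 above the median gene (adjusted p = 0.273).

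Of the BH3-only genes, Bid had the largest fitted difference, 0.89 ± 0.40, 0.52 above the median gene (adjusted p = 0.159), with 13.9 to 25.6 FPKM in post_Liver and 4.93 to 28.1 FPKM in pre_Liver. Bcl2l11 was at 7.20 to 24.7 FPKM in post_Liver and 5.00 to 17.0 FPKM in pre_Liver (0.72 ± 0.39, 0.35 above the median gene, adjusted p = 0.211). Bnip3l was at 31.1 to 43.8 FPKM in post_Liver and 25.0 to 37.9 FPKM in pre_Liver, a difference of 0.32 ± 0.17, just under that of the median gene. Pmaip1 was low, at 1.51 to 3.96 FPKM in post_Liver and 0.90 to 2.86 FPKM in pre_Liver (0.39 ± 0.25, 0.03 above the median gene, adjusted p = 0.257). Bbc3 had the smallest difference, 0.15 ± 0.15, which is −0.22 relative to the median gene, with 5.84 to 7.05 FPKM in post_Liver and 4.22 to 6.73 FPKM in pre_Liver.

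Several members varied with albumin among the liver libraries. The library pre_Liver 2, with the least Alb of its group (8231 TPM), had the highest Bak1, Bax, Bid, Bcl2 and Bcl2l11, and pre_Liver 4 and 5, with the most Alb (56772 and 61264 TPM), had the lowest levels of every member except Bbc3. In the treated group, post_Liver 4, with the most Alb (21906 TPM), had the lowest Bcl2, Bcl2l11, Bid, Bnip3l, Bak1 and Bax. Mcl1 (98.5 FPKM), Bcl2l1 (34.4) and Pmaip1 (2.56) went the other way in that library, each being the second highest of its group. With log2 Alb as a covariate the differences were 0.68 for Mcl1, 0.59 for Bcl2l1, 0.09 for Bcl2 and −0.13 for Bcl2l11, none of them called. Alb itself ran lower after treatment (734 to 21906 TPM in post_Liver, 8231 to 61264 TPM in pre_Liver). The covariate therefore cannot tell hepatocyte content and treatment apart, and the part of hepatocyte content was not tested.

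**Figure D3:**
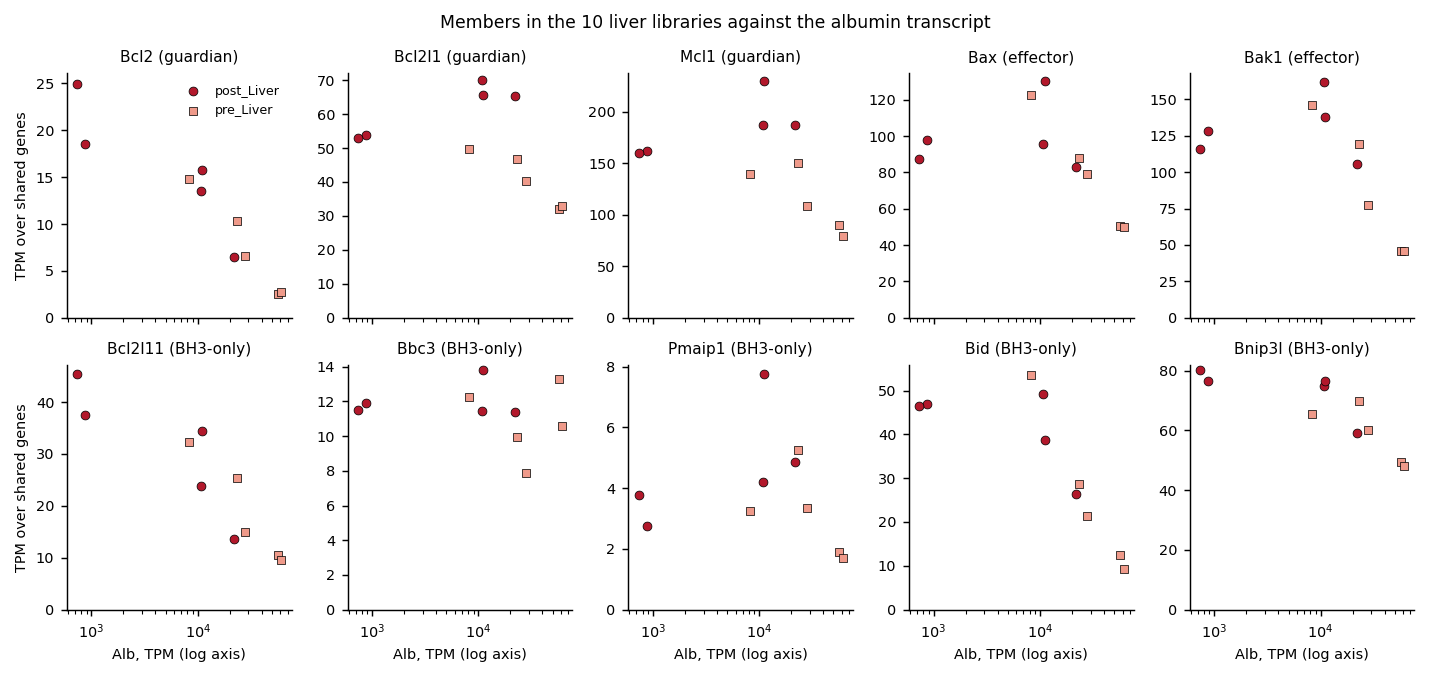
Level of each member (vertical axis, TPM over shared genes) against the albumin transcript Alb (horizontal axis, TPM, log scale) in the 5 post_Liver libraries (circles) and 5 pre_Liver libraries (squares). The 2 libraries with the most Alb, pre_Liver 4 and 5, are at the low end for every member except Bbc3.

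The treated-untreated difference depended on which untreated libraries were used. The submitters' own adjustment of the untreated libraries treats pre_Liver 1 to 3 and pre_Liver 4 and 5 as separate sets. Against pre_Liver 1 to 3 alone, Mcl1 differed by 0.45 (adjusted p = 0.402), Bcl2l1 by 0.39 (0.393) and Bak1 by 0.19 (0.803), and 0 members were called. Against pre_Liver 4 and 5 alone, the same genes differed by 1.13 (0.00981), 0.90 (0.0114) and 1.48 (0.00874), and 8 members were called, all but Bbc3 and Pmaip1. Without the single library pre_Liver 2, 5 members were called: Bcl2 (1.28, adjusted p = 0.0471), Bcl2l1 (0.67, 0.0261), Mcl1 (0.81, 0.0307), Bak1 (0.93, 0.0467) and Bid (1.20, 0.0310). Over all genes, 6062 were called against pre_Liver 4 and 5 and 3532 without pre_Liver 2. The full fit called 474 of 13008. Calls thus rose across all genes in these fits, and not only among the members.

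Markers of another cell type differed between the liver groups. Of 15 neutrophil markers, 12 were called higher, and their summed level was 3631 to 21944 TPM in post_Liver and 204 to 1513 TPM in pre_Liver, without overlap. The 20 hepatocyte markers summed to 4522 to 98186 TPM in post_Liver and 38613 to 163159 TPM in pre_Liver, with 0 of 20 called and 14 at an unadjusted p below 0.05 (median difference −2.21). All 15 carcinoma markers tested had a positive difference, with a median of 1.45, 0 called and 2 at an unadjusted p below 0.05. None of the neutrophil markers was at 0 throughout any group. Neutrophils are known to express Mcl1 strongly, and their part in its liver values was not tested.

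Within libraries, the liver ratios overlapped between the groups in all 5 pairs examined. Bax over Bcl2 was 7.08, 5.29, 3.49, 12.9 and 8.28 in post_Liver and 8.53, 8.26, 12.0, 19.5 and 18.1 in pre_Liver, a mean log2 ratio of 2.75 ± 0.71 and 3.64 ± 0.58 (SD, n = 5 each). This ratio varied with albumin. It was 3.49 in post_Liver 3 (Alb at 734 TPM) and 12.9 in post_Liver 4 (21906 TPM). In pre_Liver 2 (8231 TPM) it was 8.26 and in pre_Liver 4 (56772 TPM) 19.5. The part of hepatocyte content in the ratio was not tested. Bak1 over Mcl1 had a mean log2 ratio of −0.52 ± 0.26 in post_Liver and −0.50 ± 0.41 in pre_Liver, a difference of −0.01.

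The third comparison tested the difference between the responses themselves, as an interaction over all 16 libraries in TPM over shared genes. None of the 10 members was called (3.01% of 13868 genes were, 2.22% higher and 0.793% lower). At an unadjusted p below 0.05 there were 2, and the share of all genes at that unadjusted p was not computed. Bak1 had the largest value: its liver response exceeded its subcutaneous response by 1.27 ± 0.46 on the log2 scale (95% interval 0.28 to 2.25, adjusted p = 0.122; 1.49 and 0.0243 without pre_Liver 2). For Bnip3l the value was 0.61 ± 0.24 (adjusted p = 0.142), and for Bax 0.70 ± 0.36 (adjusted p = 0.231). The median of all genes was 0.38, so that Bak1 stood 0.88, Bax 0.32 and Bnip3l 0.22 above it.

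For the guardians the interaction was −0.11 for Bcl2 (95% interval −1.51 to 1.30), 0.12 for Bcl2l1 (−0.47 to 0.72) and 0.41 for Mcl1 (−0.20 to 1.03). These intervals are wide enough to hold differences of more than 1.5-fold in either direction for Bcl2, so a like response at both sites is not shown. Pmaip1 had the most negative value, −0.54 (−1.43 to 0.34). Among called genes of this comparison 73.7% were higher, against 58.4% after median-of-ratios scaling, under which the values of Bcl2l1, Mcl1 and Bcl2l11 turned negative. Against pre_Liver 1 to 3 alone the value of Bak1 was 0.77 (adjusted p = 0.252).

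**Figure D4:**
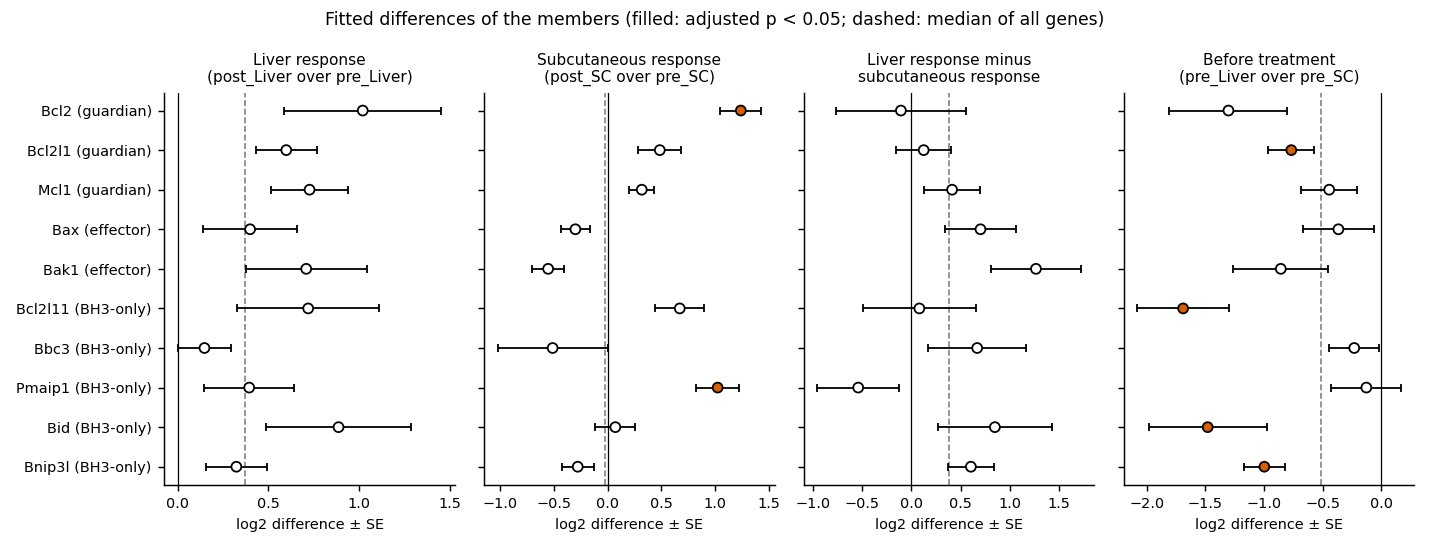
Fitted log2 differences ± SE (horizontal axis) of the 10 members (rows) in the liver response, the subcutaneous response, the difference between these responses, and untreated liver against untreated subcutaneous tumors. Filled dots have an adjusted p below 0.05 and dashed lines mark the median of all genes tested, at 0.37, −0.03, 0.38 and −0.52; only Bcl2 and Pmaip1 in the subcutaneous response and 4 members in the untreated comparison are filled.

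The fourth comparison set untreated liver tumors against untreated subcutaneous tumors, in the TPM restored from the authors' table of untreated libraries. All 10 members had lower fitted levels in pre_Liver, and 4 were called lower, against 33.5% of the 13727 genes tested (48.9% called in either direction), so the share of the members is near that of all genes. The groups did not overlap for 3 members, against 52.2% of all genes tested. The median of all genes was −0.52. Of the called genes 31.4% were higher in pre_Liver, and 56.4% after median-of-ratios scaling, under which the median was −0.02.

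Bcl2l11 had the largest difference. It was at 25.0, 32.2, 14.8, 10.4 and 9.32 TPM in pre_Liver and 58.6, 55.4 and 51.7 TPM in pre_SC, all liver libraries lying below all subcutaneous ones (−1.69 ± 0.39, adjusted p = 0.0121; 1.17 below the median gene). Bnip3l was at 69.0, 65.1, 59.2, 48.5 and 47.3 TPM in pre_Liver and 123, 112 and 111 TPM in pre_SC. It too was without overlap and fell by 1.00 ± 0.18 (adjusted p = 0.00407; 0.48 below the median gene). Bcl2l1 was at 46.3, 49.4, 39.6, 31.3 and 32.5 TPM in pre_Liver and 61.1, 72.4 and 69.4 TPM in pre_SC (−0.77 ± 0.20, adjusted p = 0.0174). Bid was called with overlapping groups, at 28.4, 53.3, 21.0, 12.3 and 9.19 TPM in pre_Liver and 73.8, 59.0 and 48.2 TPM in pre_SC (−1.48 ± 0.50, adjusted p = 0.0399). For Bcl2l11, Bnip3l and Bcl2l1 the exact two-sided permutation p was 0.0357, the smallest that 5 against 3 libraries can give.

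The other 6 members were not called. Bcl2 was at 2.52 to 14.8 TPM in pre_Liver and 13.7 to 18.6 TPM in pre_SC (−1.30 ± 0.50, adjusted p = 0.0572), and Bak1 at 44.8 to 145 TPM in pre_Liver and 131 to 152 TPM in pre_SC (−0.86 ± 0.40, adjusted p = 0.0984). Mcl1 differed by −0.45 (95% interval −0.99 to 0.10), Bax by −0.37 (−1.06 to 0.32), Bbc3 by −0.23 (−0.72 to 0.25) and Pmaip1 by −0.13 (−0.80 to 0.55). Mcl1, Bax, Bbc3 and Pmaip1 were above the median gene, and all 4 turned positive after median-of-ratios scaling.

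Within pre_Liver 1 to 3 and pre_SC, which share 1 adjustment set, Bcl2l11 differed by −1.23 (adjusted p = 0.0137), Bnip3l by −0.83 (0.00623) and Bcl2l1 by −0.58 (0.0316), while Bid was not called (−0.88, 0.0714). The call of Bcl2l1 was lost after median-of-ratios scaling (−0.23, adjusted p = 0.168) and without pre_SC 1, 2 or 3 (0.0518, 0.0640 and 0.0687). That of Bcl2l11 was lost without pre_SC 1 (0.0528), and that of Bid when any 1 of 6 libraries was left out: pre_SC 1 (0.130), pre_SC 2 (0.0969), pre_SC 3 (0.0838), pre_Liver 3 (0.0736), pre_Liver 4 (0.0738) and pre_Liver 5 (0.0653). Without pre_Liver 1, Bcl2 was called (−1.47, 0.0493), and without pre_Liver 2, Bcl2 (−1.59, 0.0110) and Bak1 (−1.08, 0.0214) were. Of 16 carcinoma epithelium markers, 14 were called lower in pre_Liver and 19 of 20 hepatocyte markers were called higher (median difference 9.05). The part of this cell mixture in the members' values was not tested.

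After treatment the sites stand in separately normalized tables, so only levels are given, in TPM over shared genes. Bcl2 was at 13.5, 18.5, 25.0, 6.45 and 15.8 TPM in post_Liver and 42.5, 31.8 and 47.4 TPM in post_SC, without overlap. Bcl2l11 was at 23.8, 37.6, 45.4, 13.7 and 34.4 TPM in post_Liver and 72.5, 72.9 and 131 TPM in post_SC, also without overlap. Bcl2l1 and Bid likewise lay lower in every post_Liver library than in every post_SC library, and the remaining members overlapped. The share of all genes without overlap was not computed between treated sites. Between untreated sites, which are other libraries, it was 52.2% of the genes tested. Whether the separation after treatment is particular to these members was not tested. Mcl1 covered nearly the same range, 160 to 230 TPM in post_Liver and 171 to 203 TPM in post_SC. The within-library ratio of Bax to Bcl2, which does not depend on the library scale, had a mean log2 value of 2.75 ± 0.71 in post_Liver and 0.93 ± 0.49 in post_SC. That of Bax to Bcl2l1 had one of 0.67 ± 0.27 in post_Liver and −0.32 ± 0.44 in post_SC, and neither ratio overlapped. Bax over Bcl2 varied with albumin among the liver libraries, so cell mixture can enter it, and its part was not tested. The share of other gene pairs without overlap was not computed.

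Further members of the family outside the 10 were read from a list. In the subcutaneous response, Bmf, a BH3-only gene whose protein is tied to the cytoskeleton, rose by 1.37 ± 0.31 (adjusted p = 0.0429), at 20.1 ± 6.71 TPM in post_SC and 7.02 ± 2.22 TPM in pre_SC (SD, n = 3 each), and was the 1 called of 13 tested. Bnip3, the close relative of Bnip3l, averaged 67.0 ± 31.6 TPM in post_SC and 131 ± 3.14 TPM in pre_SC without passing (−1.08 ± 0.32, adjusted p = 0.0847). In the liver response 0 of 12 were called, Bad having the lowest p (0.60 ± 0.19, adjusted p = 0.0849); 1 of them had an unadjusted p below 0.05. Between untreated sites Bik was called higher in pre_Liver (1.35 ± 0.29, adjusted p = 0.00980), and Bcl2l2 (−0.80, 0.0196) and Bcl2l15 (−1.24, 0.0228) lower. Bcl2a1a, Bcl2a1b and Bcl2a1d are near-identical copies between which reads can be split, so their separate values are uncertain; none was called in any comparison.

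The machinery downstream of the pores and the inputs to the BH3-only genes were read from lists as well. Of 17 genes of the apoptosome, caspases and their inhibitors, 0 were called in either response, with 5 at an unadjusted p below 0.05 in the liver and 3 in the subcutaneous response; the lowest p in the liver response was that of Apaf1, the scaffold that cytochrome c assembles (0.81 ± 0.21, adjusted p = 0.0541). Between untreated sites, Endog, Aifm1 and Cycs were called higher in pre_Liver and Casp2 was among those called lower. Of 12 death receptor genes 0 were called in either response, 3 being at an unadjusted p below 0.05 in each, and Tnfrsf10b, Casp8 and Traf2 were called lower in pre_Liver than in pre_SC. Of 13 p53 targets tested in the subcutaneous response, Trp53inp1 (2.08 ± 0.32) and Sesn1 (1.16 ± 0.20) rose and Plk3 (−0.96 ± 0.20) fell; Sesn1 also rose in the liver response (0.66 ± 0.14, adjusted p = 0.0367), as the 1 called of 14.

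Of 11 genes known to induce BH3-only members under stress, Ddit3, the endoplasmic reticulum stress factor CHOP, fell by 1.17 ± 0.27 (adjusted p = 0.0478) and E2f1 by 0.65 ± 0.14 (0.0384) in post_SC, and 0 were called in the liver response, where 3 had an unadjusted p below 0.05. Between untreated sites 6 of the 11 were lower in pre_Liver, among them Trib3, Jun, Ddit3 and Atf4, and Chac1, named after its value was seen, was higher. Of 13 mitophagy and autophagy genes, the setting of Bnip3l, Pink1 (0.88 ± 0.18) and Map1lc3a (0.87 ± 0.19) rose in the subcutaneous response and Map1lc3b (0.61 ± 0.13, adjusted p = 0.0325) in the liver response. The responses of Pink1 differed between sites (−1.70 ± 0.43, adjusted p = 0.0487). Those of 5 of 14 hypoxia genes did too, each higher in the liver response, led by P4ha1 (2.77 ± 0.44, adjusted p = 0.00714).

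The genes whose pattern over the 16 libraries was most like that of a member were ranked by Pearson r of log2(TPM + 1) among 11434 genes. For Bcl2 these were Smarcd1 (r = 0.99), Commd8 (0.99) and Oaz2 (0.98), and for Mcl1 Ifngr1 (0.96), Ostf1 (0.95) and Sh3kbp1 (0.95). For Bak1 they were Tcof1 (0.97), Pold1 (0.97) and Daxx (0.97), and Daxx was also among those of Bax (0.92). Bbc3 had the least close neighbours, with Zfp768 at 0.84. The libraries share site and hepatocyte content, which enter each of these values, so they are descriptions only.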

How the data were processed

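Poly(A) RNA was sequenced from 16 digested 4T1 tumors. Per the submitters' processing notes, the tools included StringTie and fastp and the build was GRCm38 (mm10); their roles and versions are not given in the sources used here. Units were read from the values. The liver table holds FPKM as deposited by the authors (column sums of 511644 to 547589), and the subcutaneous table holds TPM as deposited, with column sums of 998769 to 998891 over the rows kept. The table of untreated libraries, deposited by the authors, holds an adjusted score: TPM plus a constant per gene, of opposite sign in pre_Liver 4 and 5, with values below 0 for 2376 genes. For the members the constant added in pre_Liver 4 and 5 was −0.907 to 34.1 TPM. The same amount was subtracted in the other untreated libraries. The constant was removed for 17398 genes, which gave back the TPM of the other tables within 7.5e-06. Counts of reads are not given, so depth is unknown.

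Each comparison was fitted over all genes with a mean of at least 1, on log2(value + 1), with limma 3.58.1 (R 4.3.3, eBayes with trend) and Benjamini-Hochberg adjustment, called at an adjusted p below 0.05; the pseudocount understates changes of low genes. The design had taken the untreated table for TPM. Single genes also had exact permutation tests (SciPy 1.17.1). Fits were tested on simulated data in which genes varied independently. The liver libraries vary in hepatocyte content, which the simulation lacks, so it does not vouch for the calls given here. Group labels came from the titles. The members and lists were chosen with earlier results of these data known. Named genes are all members, up to 4 per list and comparison in order of p, and the 3 genes most like each member; Chac1 is named besides. Alternatives were another pseudocount, no filter, median-of-ratios scaling, a replicate block, an Alb covariate, removal of hepatocyte genes, subsets of untreated libraries and leaving out each library.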

Additional observations from a re-analysis of the deposited data

How the results depend on the processing

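No member that was called in any setting had a reversed sign there. In the subcutaneous response the 927 called genes became 328 with a replicate block, and the 2 called members became 1 with the block and 1 without the filter on low values, Pmaip1 being lost in both (adjusted p = 0.0788 and 0.0529). Leaving out each library gave 77 to 772 genes and 0 to 3 members. In the liver response the 474 genes became 220 after median-of-ratios scaling, 3456 with a replicate block, 78 against pre_Liver 1 to 3, 6062 against pre_Liver 4 and 5, and 159 with post_Liver 2 and 3 averaged, an alternative chosen after seeing the data; members called were 4 with the block (Bcl2, Bcl2l1, Mcl1 and Bid) and 8 against pre_Liver 4 and 5. Leaving out each library gave 117 to 3532 genes, most without pre_Liver 2, and 0 to 5 members. Between untreated sites the 6708 genes became 3781 with a block, which leaves only pre_Liver 1 to 3 to inform the difference, and the 4 members became 2 there and 2 after median-of-ratios scaling; leaving out each library gave 2327 to 9490 genes and 1 to 6 members. For the difference of the responses the 418 genes became 1436 with a block and 158 with only pre_Liver 1 to 3, also chosen after seeing the data, and leaving out each library gave 92 to 2603 genes and 0 to 1 members. Values that turned sign, none called, were: after median-of-ratios scaling, Bbc3 (−0.20) and Bnip3l (−0.065) in the liver response, Mcl1 (0.10), Bax (0.17), Bbc3 (0.27) and Pmaip1 (0.26) between untreated sites, and Bcl2l1 (−0.33), Mcl1 (−0.051) and Bcl2l11 (−0.36) in the difference of the responses; with the Alb covariate, Bcl2l11 (−0.13) in the liver response; between untreated sites, Pmaip1 with the block (0.19), in 1 adjustment set (0.19) and as deposited (0.26), and Bax as deposited (0.0070); in the difference of the responses, Bcl2l11 without hepatocyte genes (−0.020) and, against pre_Liver 1 to 3, Bcl2l1 (−0.064) and Bcl2l11 (−0.37). Leaving out libraries gave ranges across 0 for Bid (−0.077 to 0.23) and Bbc3 (−0.91 to 0.15) in the subcutaneous response, Pmaip1 (−0.30 to 0.0037) between untreated sites, and Bcl2 (−0.36 to 0.18), Bcl2l1 (−0.0075 to 0.35) and Bcl2l11 (−0.11 to 0.36) in the difference of the responses. The cause of these changes was not tested. No label says what a shared replicate number marks. Deviations of same-numbered libraries correlated at 0.129, −0.158 and −0.113 in the subcutaneous comparison and at −0.0819 to −0.00116 in the untreated one. In the liver they correlated at −0.12, 0.677, −0.014, 0.746 and 0.261 for numbers 1 to 5, so 3 of 5 pairs deviated together and 2 did not. Of the libraries, 1 of 6, 3 of 10 and 0 of 6 in the subcutaneous, liver and untreated comparisons correlated best with their own number. The pairing is therefore not established, and the block values are given as an alternative. Depth is unknown, so what it limits could not be assessed.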
